A study of Mus musculus with 4 samples.

Results

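Isolated long noncoding RNA (lncRNA) promoters were examined among the peaks of open chromatin that were stronger in *Smyd1-KO* than in wild-type (WT) embryonic mouse hearts. A gained peak here means one whose tag number in *Smyd1-KO* hearts was at least 2-fold that in WT hearts, and all peaks have the same width. A gained peak was taken as a member when its nearer edge lay within 1 kb of a transcription start site (TSS) of a lncRNA gene of GENCODE release M21 and more than 10 kb from the TSS of every protein-coding gene. Of 25745 gained peaks, 417 met this rule, which is 1.62% of the list (exact 95% Clopper-Pearson interval 1.47 to 1.78%). They lay near the TSSs of 421 lncRNA genes, since 20 of the peaks were within 1 kb of more than one such gene and 14 of the genes had more than one such peak.

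The study asked how chromatin accessibility changes in hearts that lack SMYD1, a histone methyltransferase of striated muscle. ATAC-seq, in which a transposase inserts adapters into open chromatin, was run on hearts of embryonic day 9.5, with 2 libraries from WT and 2 from *Smyd1-KO* embryos. The *Smyd1-KO* embryos carried a conventional null allele, so SMYD1 was missing from every cell and not from cardiomyocytes only. For each library 4 whole hearts were pooled and 40000 cells were used, and no treatment was given. A peak list shows neither the deletion nor which cells were in the pool, so genotype and tissue rest on the labels. In whole hearts, a larger share of cells with an open site cannot be told apart from a more open site per cell.

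Peaks were called after the libraries of one genotype had been merged. No peak therefore has a value per library, and no replicate error can be given. The one value per peak is its signal, given by the authors as the total tags of the pooled *Smyd1-KO* libraries, and the signal of a gained peak is not its change. The values run in steps of a fraction of a tag, so they are not raw counts, and how they were scaled is not given in the sources used here. Intervals cover counting error only, because peaks share their libraries and are not replicates. The lists do not show the depth that each library reached.

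A lncRNA promoter is recognised by the same transcription machinery as a coding promoter. Many lncRNA genes start beside a coding gene and share its CpG island, whereas isolated ones have a start site of their own, and many of those resemble enhancers in base composition. Some isolated lncRNA genes are precursors of microRNAs or of small nucleolar RNAs (snoRNAs), some act in cis on imprinted or X-linked neighbours, and for most no role is known. An open promoter is not a measure of the level of the RNA.

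4 members illustrate the CpG-rich or well-known promoters among the isolated lncRNA genes and are printed whole, 5′ to 3′ along the strand of the lncRNA, with each CG in capitals. 1810026B05Rik is the mouse *Chaserr* gene and had the highest signal of all members, *Mir17hg* is the precursor of the miR-17-92 cluster, *Malat1* encodes an abundant RNA of nuclear speckles, and *H19* is an imprinted gene expressed from the maternal chromosome. The sequences are those of GRCm38 (mm10).
1810026B05Rik (chr7:73558588-73558736, minus strand): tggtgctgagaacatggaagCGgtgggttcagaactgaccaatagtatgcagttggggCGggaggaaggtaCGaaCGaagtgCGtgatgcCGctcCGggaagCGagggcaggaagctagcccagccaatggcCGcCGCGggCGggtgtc
Mir17hg (chr14:115042058-115042206, plus strand): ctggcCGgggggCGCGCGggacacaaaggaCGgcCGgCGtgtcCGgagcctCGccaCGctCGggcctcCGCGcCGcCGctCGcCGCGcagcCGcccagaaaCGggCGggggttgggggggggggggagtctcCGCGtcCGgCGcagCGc
Malat1 (chr19:5803619-5803767, minus strand): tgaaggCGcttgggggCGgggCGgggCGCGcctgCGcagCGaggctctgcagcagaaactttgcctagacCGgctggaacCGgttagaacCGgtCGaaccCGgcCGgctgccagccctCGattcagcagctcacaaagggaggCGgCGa
H19 (chr7:142578130-142578278, minus strand): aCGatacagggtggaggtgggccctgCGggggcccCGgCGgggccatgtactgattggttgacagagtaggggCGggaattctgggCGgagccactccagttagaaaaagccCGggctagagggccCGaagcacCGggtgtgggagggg
The peak at 1810026B05Rik held 12 CG dinucleotides, that at *Mir17hg* 26, that at *Malat1* 16 and that at *H19* 9. Their GC contents were 62.4, 81.9, 68.5 and 66.4%.

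3 further members are shown for the string bound by the insulator protein CTCF, which is in capitals. They are among the 4 of highest signal of the 25 members with that string.
2900072N19Rik (chr2:92058512-92058660, minus strand): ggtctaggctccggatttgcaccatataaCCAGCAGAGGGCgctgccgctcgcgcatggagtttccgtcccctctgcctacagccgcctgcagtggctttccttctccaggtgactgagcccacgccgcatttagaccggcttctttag
Gm38293 (chr1:180768563-180768711, minus strand): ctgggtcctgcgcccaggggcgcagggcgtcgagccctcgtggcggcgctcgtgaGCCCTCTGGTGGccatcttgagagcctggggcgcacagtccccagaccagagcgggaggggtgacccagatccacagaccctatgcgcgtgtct
Gm33460 (chr9:118489718-118489866, minus strand): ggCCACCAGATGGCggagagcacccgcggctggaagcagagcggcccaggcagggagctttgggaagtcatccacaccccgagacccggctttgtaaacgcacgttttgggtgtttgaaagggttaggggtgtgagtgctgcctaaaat
Their signals were 323 tags at 2900072N19Rik, 320 tags at *Gm38293* and 242.5 tags at *Gm33460*.

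4 members are shown for strings of cardiac regulators. The first pair holds the string of MEF2, a muscle transcription factor, and the second pair the string of GATA factors, again in capitals.
A230028O05Rik (chr16:25058947-25059095, plus strand): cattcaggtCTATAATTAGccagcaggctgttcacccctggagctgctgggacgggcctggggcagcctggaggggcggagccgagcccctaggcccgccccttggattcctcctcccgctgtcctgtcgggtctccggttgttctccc
8030423F21Rik (chr5:52618546-52618694, minus strand): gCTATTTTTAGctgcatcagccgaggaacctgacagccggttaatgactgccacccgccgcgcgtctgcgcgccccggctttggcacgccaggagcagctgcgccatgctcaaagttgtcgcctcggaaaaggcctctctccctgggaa
Gm47430 (chr9:78520422-78520570, plus strand): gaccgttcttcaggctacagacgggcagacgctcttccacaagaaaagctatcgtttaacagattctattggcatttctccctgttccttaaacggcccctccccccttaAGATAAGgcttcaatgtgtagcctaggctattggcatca
AC113961.1 (chr19:29067127-29067275, plus strand): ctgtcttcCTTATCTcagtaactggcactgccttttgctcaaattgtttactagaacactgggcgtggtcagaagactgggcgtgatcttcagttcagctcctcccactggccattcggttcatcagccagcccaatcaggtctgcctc
The signals of these peaks were 603.5, 278.5, 330 and 326 tags, in the order printed.

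The signal of the 417 peaks had a median of 150 tags (95% interval from binomial order statistics 133 to 174.5), and the quartiles were 79 and 320. The weakest had 34.5 and the strongest 1358.5 tags. The median of all gained peaks was 180.5 tags. Gained peaks within 1 kb of a coding TSS had a median of 420 tags (414.5 to 426.5; n = 11331), and gained peaks over 10 kb from any TSS one of 81 tags (79.5 to 83; n = 7850). Over all peaks of each set, the isolated lncRNA promoters thus lay between coding promoters and distal sites, with no overlap of the intervals. Gained peaks within 1 kb of a lncRNA TSS but also within 10 kb of a coding TSS had a median of 420.75 tags (n = 1444), close to that of coding promoters. Of the members, 185 (44.4%) were at or above the median of the list and 21 (5.04%) were in the 10% of the list with the highest signal.

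Base composition moved with the signal. A peak was called CpG-rich when the 1 kb centred on it had a GC content of at least 50% and a ratio of observed to expected CpG of at least 0.6. Of the members, 91 (21.8%, 18 to 26.1%) were CpG-rich, against 34.0% of all gained peaks, 71.7% of those at coding promoters and 1.27% of those over 10 kb from any TSS. The CpG-rich members had a median signal of 435 tags (386.5 to 526.5), and the CpG-rich coding promoters had 492 tags (485 to 498.5), so that the 2 intervals overlapped. CpG-rich distal sites had 355 tags (281 to 400; n = 100), whose interval also overlapped that of the CpG-rich members. The other 326 members had a median of 118 tags (107.5 to 130.5). This was below the 237.75 tags (231.5 to 247) of coding promoters that were not CpG-rich and above the 80 tags (79 to 81.5) of distal sites that were not. The gap between isolated lncRNA promoters and coding promoters was thus smaller among CpG-rich peaks, although no test over libraries can be made from these lists. Across the 417 members, the Spearman correlation of signal with the CpG ratio was 0.61, and across all gained peaks it was 0.73. These are descriptions across peaks of the same libraries.

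**Figure D1:**
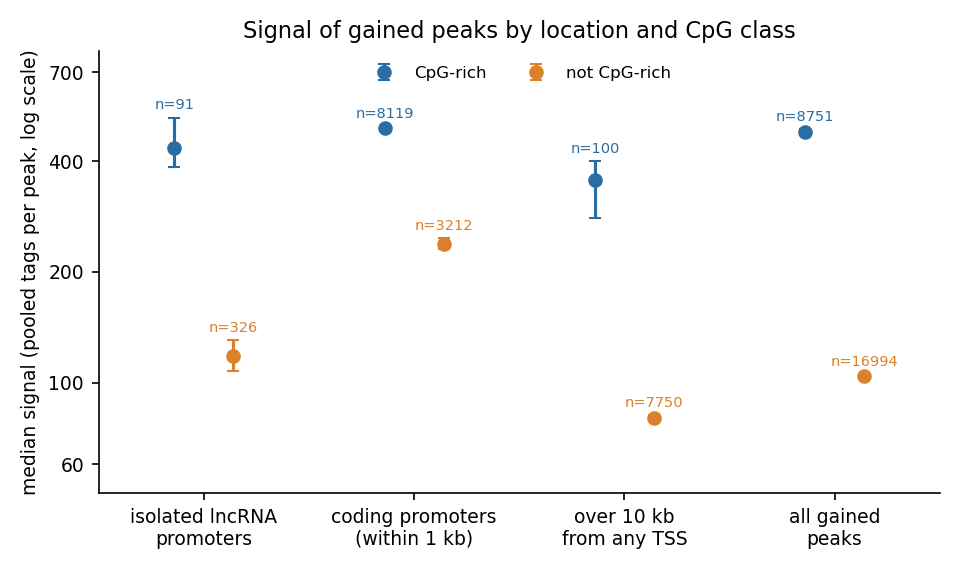
Median signal (pooled tags per peak, log scale) of gained peaks by location, split into CpG-rich peaks (blue) and the others (orange), with the number of peaks. Bars are 95% intervals of the median. Isolated lncRNA promoters had 435 tags when CpG-rich and 118 tags otherwise, and the intervals of the CpG-rich peaks overlapped those of both coding promoters and distal sites, while those of the other peaks did not.

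The next comparison set the genes with a gained peak against all genes of their class. Of the 55413 annotated genes, 23.6% had a gained peak within 1 kb of a TSS. Of the 6480 lncRNA genes with a TSS more than 10 kb from every coding TSS, 417 had a member peak there, which is 6.44% (5.85 to 7.06%), and this count of genes equals the count of peaks only by coincidence. For other classes any gained peak was counted, and the share was 33.5% (1221 of 3640) for the other lncRNA genes and 48.1% (10561 of 21938) for protein-coding genes. Counted in that way, 419 of the 6480 isolated genes had a gained peak at an isolated TSS (6.47%, 5.88 to 7.09%) and 473 had one at any of their TSSs (7.30%, 6.68 to 7.96%). The share of the isolated lncRNA genes was the lowest of these by either count, and the intervals did not overlap those of the other classes. A lncRNA gene near a coding gene can count a peak of its neighbour, and the part of this in the difference was not tested.

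CpG content set the isolated lncRNA genes apart from each other. Of the 167 isolated lncRNA genes with a CpG-rich TSS, 86 had a member peak (51.5%, 43.7 to 59.3%), against 331 of the other 6313 (5.24%, 4.71 to 5.82%). For protein-coding genes the shares were 76.3% (75.5 to 77.0%) with and 18.6% (17.9 to 19.4%) without a CpG-rich TSS. A second count took any gained peak at any TSS of the isolated lncRNA genes. It also set their CpG class from any TSS and not from isolated ones only. By it, 130 of 229 genes with a CpG-rich TSS had a peak (56.8%, 50.1 to 63.3%). Of the other 6251 genes, 343 had one (5.49%, 4.94 to 6.08%). In both CpG classes the isolated lncRNA genes had the lower share by either count, with intervals that did not overlap those of coding genes.

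**Figure D2:**
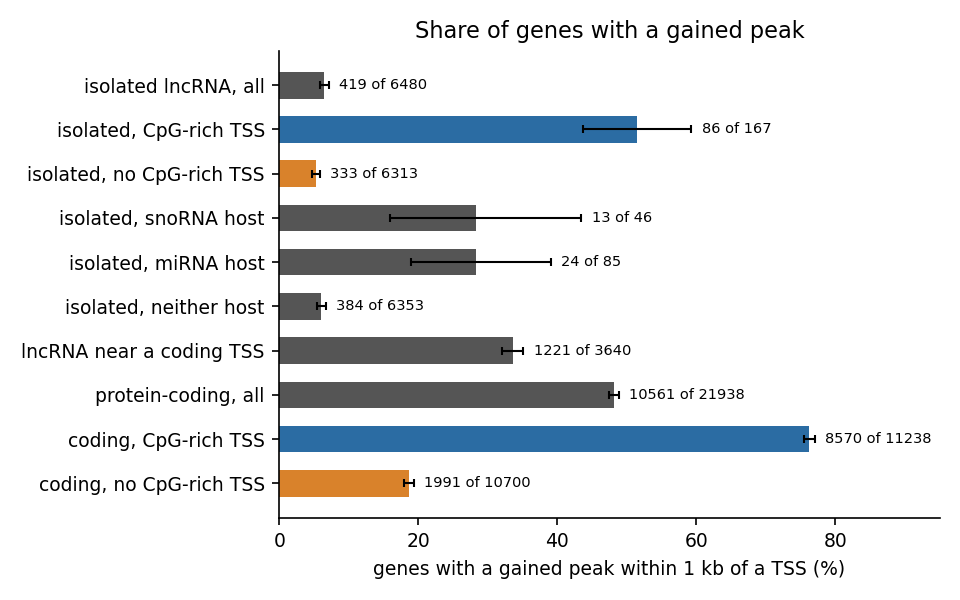
Share of genes (%) with any gained peak within 1 kb of a TSS, by gene class, with exact 95% intervals and the number of genes. For isolated lncRNA genes only their isolated TSSs were counted. They stood at 6.47% in all, 51.5% with a CpG-rich TSS, and near 28% where they held a miRNA or a snoRNA.

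The share also varied with the kind of isolated gene. It was 13.1% (9.78 to 17%) for genes of the type processed_transcript, 6.30% for antisense genes, 6.07% for lincRNA genes and 3.93% (1.60 to 7.93%) for sense_intronic genes. Genes with 1 annotated transcript had a share of 5.18%, those with 2 to 4 had 8.62%, and those with 5 or more had 17.6% (12.7 to 23.6%). A gene with more transcripts has more TSSs at which a peak can be counted, and the part of this in the difference was not tested. Of the member peaks, 289 were nearest to a lincRNA gene (median signal 138 tags), 69 to an antisense gene (156.5 tags), 52 to a processed_transcript gene (283.75 tags, 189.5 to 378) and 7 to a sense_intronic gene (72 tags). CpG-rich peaks made up 46.2% of those at processed_transcript genes and 19.4% of those at lincRNA genes.

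Isolated genes that host small RNAs had shares above that of the remaining isolated genes, with intervals that did not overlap. Of 85 isolated lncRNA genes that contain an annotated miRNA on their strand, 24 had a member peak (28.2%, 19 to 39.0%). Of 46 that contain a snoRNA, 13 had one (28.3%, 16.0 to 43.5%). Genes with neither had a share of 6.01% (5.44 to 6.63%). The 5 hosts of the highest signal were *Zswim6*, which holds a predicted miRNA gene (1120.5 tags), *Snhg8* (742.5 tags), *Gm20732*, host of *Mir30d* (726.5 tags), 9330159M07Rik, host of a predicted snoRNA (717 tags), and 6720427I07Rik, host of a let-7 cluster (679.5 tags). RefSeq classes *Zswim6* as a coding gene, as given below. The peak at 9330159M07Rik is shared with *Gm26611*, and 65.8% of its 36-base words occur more than once in the genome.

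Mature miRNAs of 5 of the 24 miRNA hosts with a member peak, chosen by family and not by signal, are shown because they include families known from proliferation and differentiation. The seed, bases 2 to 8, is in capitals, and the sequences are from RefSeq on GRCm38.p6.
mmu-let-7a-5p in 6720427I07Rik: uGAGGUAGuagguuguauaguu
mmu-let-7d-5p in 6720427I07Rik: aGAGGUAGuagguugcauaguu
mmu-let-7f-5p in 6720427I07Rik: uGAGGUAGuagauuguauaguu
mmu-let-7c-5p in Mir99ahg: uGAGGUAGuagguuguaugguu
mmu-miR-29b-3p in A330023F24Rik: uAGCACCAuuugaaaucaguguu
mmu-miR-29c-3p in A330023F24Rik: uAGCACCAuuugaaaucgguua
mmu-miR-17-5p in Mir17hg: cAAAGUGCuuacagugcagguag
mmu-miR-20a-5p in Mir17hg: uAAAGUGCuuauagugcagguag
mmu-miR-19b-3p in Mir17hg: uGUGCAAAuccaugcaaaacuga
mmu-miR-92a-3p in Mir17hg: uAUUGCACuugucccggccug
mmu-miR-15a-5p in Dleu2: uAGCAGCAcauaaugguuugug
mmu-miR-16-5p in Dleu2: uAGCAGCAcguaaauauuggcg
The let-7 members at 6720427I07Rik and at *Mir99ahg* share the seed GAGGUAG, although the signals of the host promoters differed, at 679.5 tags for the former and 128 and 64 tags for the pair of peaks at the latter. The miR-29 pair shares AGCACCA, miR-17 and miR-20a share AAAGUGC, and miR-15a and miR-16 share AGCAGCA.

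A list of miRNA hosts drawn by symbol had 14 genes, 11 of them isolated, and 6 had member peaks, against 6.44% of all isolated lncRNA genes. Like the lists of the paragraphs below, it was chosen with earlier results of these data known. Such shares describe the named genes only. The list includes *Mirt1* and *Mirt2*, which match by name but are not known as miRNA hosts and had no gained peak, and it leaves out *H19* and *Snhg20*, which hold a miRNA and are described with other lists. *Mir17hg*, whose miRNAs promote proliferation, had a peak of 444.5 tags located 673 bp upstream of its TSS (chr14:115042058-115042206). *Dleu2*, the host of miR-15a and miR-16, had 3 peaks of 388, 339 and 327 tags, all CpG-rich, of which the strongest covered a TSS in an exon (chr14:61648766-61648914) and was also within 1 kb of a TSS of *Gm27017*, so that it is shared. The remaining hosts were weaker. *Mir99ahg* had 128 and 64 tags, *Mir670hg* 113.5 tags, *Mir155hg*, host of a miRNA of immune cells, 108.5 tags, and *Dnm3os*, host of miR-199a and miR-214 in mesenchyme, 82.5 tags. The hosts *Mir124-2hg*, *Mir124a-1hg* and *Mir9-3hg*, whose miRNAs are neural, were isolated and had no member peak. *Mir133a-1hg*, named for a miRNA of muscle, had none either. 3110039I08Rik, which holds *Mir100*, *Mirlet7a-2* and *Mir125b-1* but was outside the list, had 3 member peaks of 139.5, 116 and 49 tags, and together with *Dleu2* it had the most peaks of any gene. The peak of 116 tags is shared with *Gm49317*, which holds the same 3 miRNAs on the same strand, so this locus counts as 2 of the 24 miRNA hosts. The other 12 genes with more than one member peak had 2 each, among them *Mir99ahg* and A330023F24Rik, host of the miR-29 pair, with 565.5 and 78.5 tags.

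The snoRNA hosts, genes that release snoRNAs from their introns and carry promoters like those of ribosomal protein genes, formed a list of 17 genes. Of these 7 were isolated and 6 had a member peak, against 13 of 46 isolated genes that contain a snoRNA and 6.44% of all isolated lncRNA genes. The list holds the well-known hosts only. *Snhg8* had 742.5 tags, *Snhg5* 544.5 tags, *Dancr* 535.5 tags, *Snhg6* 429.5 tags, *Snhg20* 226 tags and *Snhg17* 214.5 tags. All of them were CpG-rich and above the median of the members. The one isolated gene of this list without a peak was *Snhg14*, an imprinted and very long transcript.

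Imprinted genes, expressed from one parental chromosome, formed a list of 10, of which 8 were isolated and 4 had a member peak, against 6.44% of all isolated lncRNA genes. *Kcnq1ot1*, a paternally expressed antisense RNA that silences its cluster in cis, had 346.5 tags at a peak covering its TSS (chr7:143296536-143296684), within *Kcnq1*. *Airn*, the antisense RNA that silences *Igf2r*, had 269 tags at a peak 752 bp upstream of its annotated TSS. This peak lay 10241 bp from the nearest GENCODE start of *Igf2r* and 29147 bp from the nearest RefSeq coding start of that gene. *H19* had 217 tags at a peak covering its TSS in an exon (chr7:142578130-142578278), and *Peg13* had 214.5 tags. None of these but *Peg13* was CpG-rich by the measure used. *Meg3*, *Rian* and *Mirg*, transcribed from one imprinted domain of chromosome 12, and *Snhg14* had no member peak.

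Of the RNAs of X inactivation and other X-linked lncRNAs, *Firre*, which helps to organise the nucleus, had a peak of 339.5 tags. *Xist*, *Tsix*, *Jpx*, *Ftx* and 4933407K13Rik, all isolated, had none, so that 1 of 6 isolated genes had a member peak against 6.44% of all. The X chromosome as a whole held 12 members, or 2.03% of its gained peaks, and chromosome Y held none.

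The list of RNAs of nuclear bodies had 2 genes, both isolated and both with a member peak, against 6.44% of all isolated lncRNA genes, and 2 genes are too few to describe a class. *Malat1* had 526.5 tags at 947 bp upstream of its nearest TSS (chr19:5803619-5803767). *Neat1*, the scaffold of paraspeckles, lay within 1 kb of a peak of 226.5 tags that was closer to *Frmd8os*, an antisense lncRNA gene, so the peak cannot be given to one of the pair.

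In the list of RNAs known from growth, p53 and stress, 6 of 7 annotated genes were isolated and 4 had a member peak, against 6.44% of all isolated lncRNA genes. 1810026B05Rik (*Chaserr*), which restrains the neighbouring remodeller gene *Chd2*, had 1358.5 tags, rank 138 of the 25745 gained peaks. The peak lay 193 bp upstream of its TSS and 16758 bp from that of *Chd2*. 2900097C17Rik (*Norad*), which sequesters Pumilio proteins, had 176.5 tags, and 42.1% of the 36-base words of that peak occur more than once in the genome. *Trp53cor1* (lincRNA-p21), a p53 target beside *Cdkn1a*, had 118.5 tags, and *Pvt1*, downstream of *Myc*, had 52.5 tags. *Lncpint* and *Crnde* had an isolated TSS and no member peak, and *Crnde* had a gained peak that did not meet the distance to coding TSSs.

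Of 6 annotated cardiac and vascular lncRNA genes 5 were isolated, and of these *Carmn* had a member peak, a share of 1 in 5 against 6.44% of all isolated lncRNA genes. *Carmn*, known from smooth muscle and cardiac precursors, had 470.5 tags at 922 bp upstream of its TSS. *Bvht*, which is required in cardiac precursors, *Hand2os1*, which lies beside *Hand2*, *Fendrr*, of the lateral mesoderm, and *Miat* had none. Of the 18 annotated lncRNA genes beside developmental regulators, 6 were isolated and none of the 18 had a member peak. Among the 6, *Pantr1* and *Wt1os* had a gained peak within 10 kb of a coding TSS, and *Pantr2*, *Sox2ot*, *Rmst* and *Dlx6os1* had no gained peak. Against the 6.44% of all isolated genes, 6 genes are too few to show a lower share. A gene without any gained peak may be open to the same degree in both genotypes or closed in both, which differential lists cannot show.

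**Figure D3:**
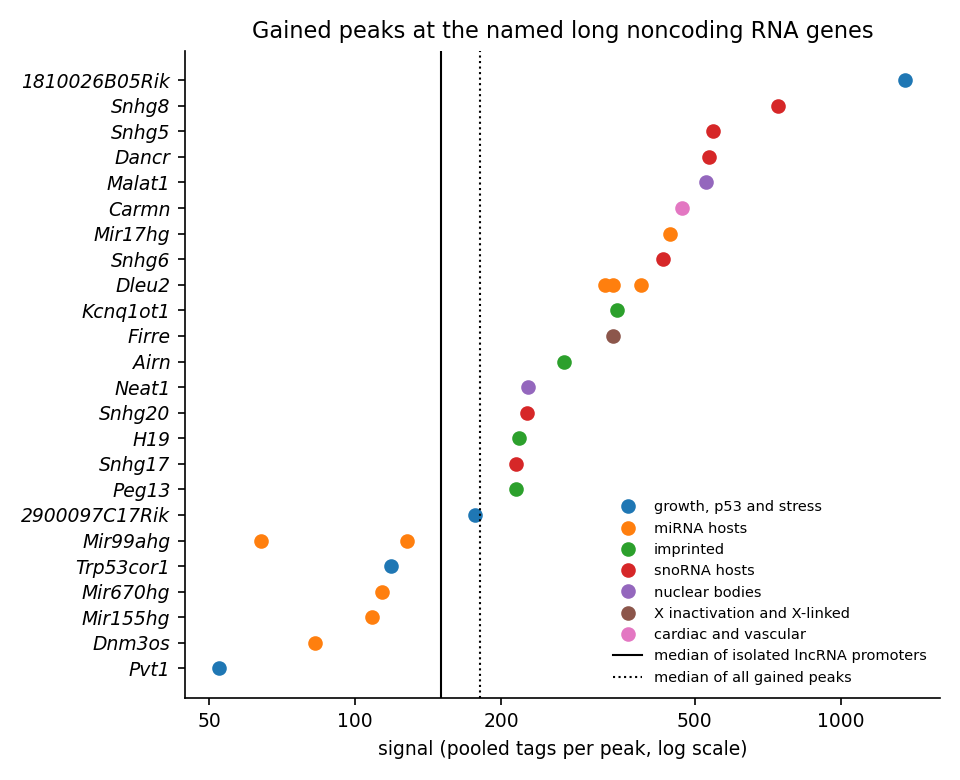
Signal (pooled tags per peak, log scale) of each gained peak at the named lncRNA genes, coloured by list. The solid line is the median of the isolated lncRNA promoters (150 tags) and the dotted line that of all gained peaks (180.5 tags). The 6 snoRNA hosts with a peak lie above both lines, and the miRNA hosts spread from 64 to 444.5 tags.

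Most members were at genes without a descriptive name. Of the 417 peaks, 230 were nearest to a gene with a *Gm* symbol (median 126 tags), 110 to a gene with a *Rik* symbol (184.5 tags) and 77 to a gene with another name (226 tags). The 10 members of the highest signal, after 1810026B05Rik, were 1700096K18Rik (1352 tags), *Gm15287* (1301 tags), 1700028E10Rik (1248 tags), *Gm33195* (1201 tags), *Zswim6* (1120.5 tags), *Gm10433* (1044.5 tags), 2810410L24Rik (1038.5 tags), *Gm10010* (989 tags) and *Gm26901* (955.5 tags). All 10 were CpG-rich. The 5 of the lowest signal were *Gm31693* (34.5 tags), 4931420L22Rik (36.5 tags), *Gm2824* (37 tags), *Gm26945* (37.5 tags) and *Gm47359* (37.5 tags). None of these was CpG-rich, and 4 of them were over 100 kb from a coding TSS.

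The label was checked against a second annotation. RefSeq placed the TSS of a coding gene within 1 kb of 24 of the 417 peaks (5.76%, 3.72 to 8.44%) and within 10 kb of 32 (7.67%). At 14 of the 24 the coding transcript was a curated one. Of those, *Zswim6* lay 163 bp from the peak of 1120.5 tags named above, and *Trerf1*, with member peaks of 780 and 284 tags, is a coding gene in RefSeq as well. *Gm37494* (934 tags) lay beside RefSeq *Gm33989*, and 1700123J17Rik (288 tags) beside *Sbk1*, which encodes a kinase. The median signal of the 24 was 286 tags, and without any RefSeq coding TSS within 10 kb the other 385 peaks had a median of 144.5 tags. By symbol, 229 members were at genes that RefSeq also classes as lncRNA, 13 at coding genes, 5 at transcribed pseudogenes and 170 at genes with no matching symbol.

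Inside the 1 kb that the rule allows, members were most frequent next to the TSS. Distances were to the nearest of all annotated lncRNA starts, and no expected distribution was computed. The centres of 102 of the 417 lay within 100 bp upstream of the nearest lncRNA TSS and those of 50 within 100 bp downstream. A TSS was covered by 124 peaks (29.7%, 25.4 to 34.4%), 168 lay upstream and 125 downstream. At coding promoters 53.8% of the gained peaks covered a TSS of a coding gene. Any annotated start of the class was counted, and the part of the number of starts per gene in this difference was not tested. The covering peaks had a median signal of 198.75 tags (141.5 to 224.5), the upstream ones 153.5 tags and the downstream ones 127.5 tags (98 to 155). The median distance to the TSS was 108 bp. The distance to the nearest coding TSS had a median of 48227 bp. The 121 members over 100 kb from a coding TSS had a median of 101.5 tags (85 to 123.5) and were CpG-rich in 9.09% of cases, while the 83 members at 10 to 20 kb had 208.5 tags (180.5 to 257.5) and were CpG-rich in 27.7%. The Spearman correlation of signal with that distance was -0.28 across the 417 members.

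**Figure D4:**
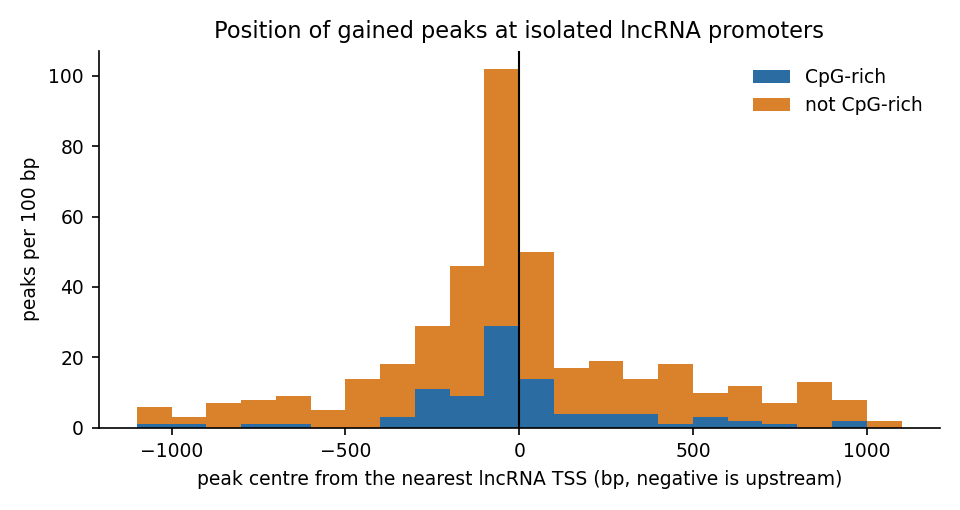
Position of the centre of each gained peak relative to the nearest lncRNA TSS (bp, negative is upstream), in bins of 100 bp, stacked by CpG class. The tallest bin, just upstream of the TSS, holds 102 peaks, of which 29 are CpG-rich.

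In relation to coding genes, 53 members lay inside a coding gene, 42 with the lncRNA on the opposite strand and 11 on the same strand. Within the lncRNA gene, 192 members overlapped an exon, 91 an intron and 134 lay outside. By chromosome, chromosome 17 held the most members with 37 (3.46% of its gained peaks), and chromosome 3 had the lowest share apart from Y, with 13 members (0.967%). Repeated sequence was present in few. In 27 members (6.47%) more than 10% of the 36-base words occurred more than once in the genome, against 4.34% of all gained peaks, and signal at such places depends on how reads with several positions were treated. At the threshold of 1 kb, the members just inside were *Gm17619* (1000 bp, 78.5 tags), *Gm15138* (991 bp, 139 tags) and 2810032G03Rik (988 bp, 115.5 tags), and just outside were peaks near *Gm5544* (1002 bp, 109 tags), *Gm16195* (1009 bp, 115.5 tags) and *Frmd8os* (1011 bp, 255.5 tags). At the threshold of 10 kb, they were 4930412M03Rik (10046 bp, 760.5 tags), *Gm15123* (10113 bp, 125 tags) and *Gm26751* (10187 bp, 180.5 tags) inside, and *Gm13832* (9974 bp, 181 tags), 4930520O04Rik (9959 bp, 132 tags) and *AC131712.1* (9883 bp, 194 tags) outside.

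Strings bound by transcription factors were searched on both strands of each peak. The CTCF string, of which the first of the CTCF peaks printed above holds CCAGCAGAGGGC, was present in 25 members (6.0%, 3.92 to 8.72%). It was present in 1.19% of the gained peaks at coding promoters (1.0 to 1.41%), in 6.03% of those over 10 kb from any TSS and in 4.34% of all. Of the 25 members with it, 1 was CpG-rich, and they had a median signal of 131.5 tags. The GATA string AGATAAG was present in 22 members (5.28%, 3.34 to 7.88%), against 4.15% of all gained peaks, 0.944% at coding promoters and 7.87% at distal sites. The members with it had a median signal of 70.75 tags and 2 of them were CpG-rich. The SP1 string GGGGCGGGG, of GC-rich promoters, was present in 28 members (6.71%, 4.51 to 9.56%), against 7.59% of all gained peaks, 14.7% at coding promoters and 1.38% at distal sites, and 17 of the 28 were CpG-rich. The shorter core of the CTCF string, which matches more freely, was present in 24.9% of members, 23.8% of coding promoters and 24.0% of distal sites, so that the contrast with coding promoters was seen with the longer string only. For the longer CTCF string, GATA and SP1 alike, the interval of the members included the share of all gained peaks. Base composition differs between the sets as given above, and its part in these shares was not tested.

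Of the strings of cardiac and muscle factors, MEIS TGACAG was present in 68 members (16.3%; 15.0% of all gained peaks), the E-box CAGCTG in 67 (16.1%; 12.2%), NKX2-5 CACTTNA in 32 (7.67%; 6.76%) and TEAD CATTCCA in 11 (2.64%; 3.53%). The MEF2 string was present in 5 members (1.20%; 0.940%), the TBX string AGGTGTGA in 2 (0.480%; 0.435%) and the SRF string in 2 (0.480%; 0.897%). Of strings common at housekeeping promoters, ETS CCGGAAGT was present in 8 members (1.92%; 1.94%), YY1 AAGATGGC in 3 (0.719%; 1.43%) and NRF1 GCATGCGC in 2 (0.480%; 1.38%). Except for the E-box, whose interval in the members (12.7 to 19.95%) did not include the share of the whole list, each interval of the strings in this paragraph included it. The YY1 string overlaps a form of the CTCF core string. A match is only a run of letters and not a bound site.

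**Figure D5:**
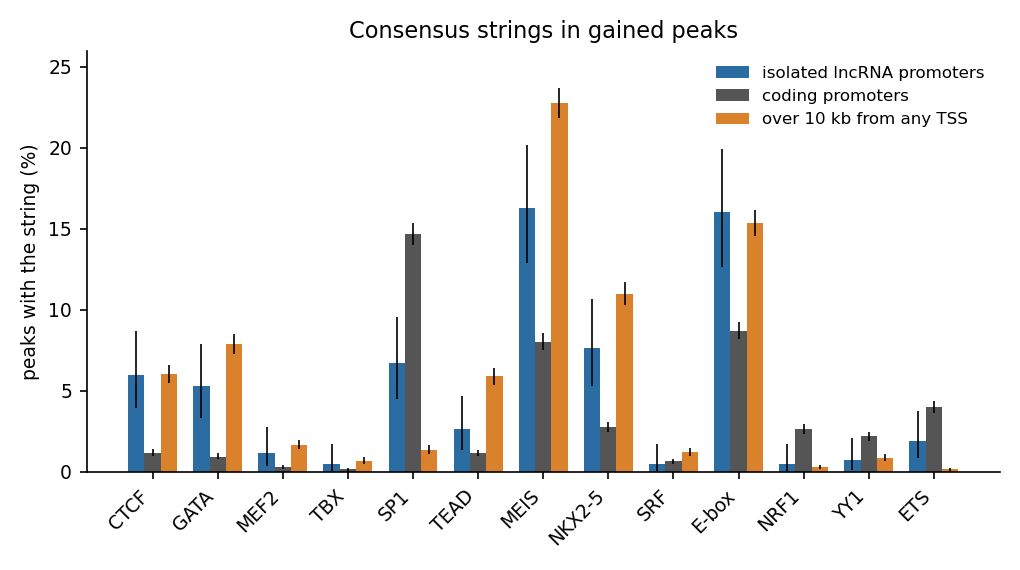
Share of peaks (%) with each consensus string, for isolated lncRNA promoters (blue), coding promoters (grey) and peaks over 10 kb from any TSS (orange), with exact 95% intervals. CTCF stands at 6.0, 1.19 and 6.03% in this order, and SP1 at 6.71, 14.7 and 1.38%.

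4 members had a known heart regulator as the nearest coding gene, out of 52 such regulators in a list chosen after values had been seen. B230312C02Rik, near *Gata5*, a cardiac transcription factor of the endocardium, had 774.5 tags at 50684 bp from its TSS. The miRNA gene *Mir1a-1* starts nearer to that peak, at 3517 bp. *Tbx3os1*, near *Tbx3*, a repressor in the conduction system, had 448 tags at 95313 bp. C230057A21Rik, near the Notch target *Hey1*, had 150 tags at 68988 bp, and *Gm15221*, near the growth factor gene *Bmp4*, had 144.5 tags at 46084 bp. None of them was CpG-rich. They made up 0.959% of the members, against 1.02% (263 peaks) of all gained peaks, so such neighbours were about as frequent as in the list as a whole.

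In the opposite direction, the list of peaks at least 2-fold stronger in WT hearts holds 106 peaks, and 0.0217% of all annotated genes had one within 1 kb of a TSS. By the same rule 3 of the 106 were at isolated lncRNA promoters (2.83%, 0.588 to 8.05%), an interval that includes the share among gained peaks. They were at *Gm40983* (49 tags, chr13:65380993-65381141) and, with 37.6 and 36.9 tags, at *Gm48221* (chr13:65995895-65996043 and chr13:65996342-65996490). In these 3 peaks 50.9, 100 and 78.1% of the 36-base words occurred more than once in the genome.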

How the data were processed

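ATAC-seq libraries of embryonic hearts, 2 per genotype, were aligned by the authors to mm10 with BWA, and peaks were called with HOMER (version 4.10.3 in the submitters' processing notes) on the combined libraries of a genotype. The deposited signal is the total tags per peak of the pooled libraries of the genotype with more of them, for peaks differing at least 2-fold. Its values are not whole numbers, and their scaling is not given in the sources used here. Treatment of duplicates, multiply placed reads and the Tn5 offset is not given in the sources used here.

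Distances were measured from the nearer peak edge to every transcript start of GENCODE M21, on all chromosomes but the mitochondrial. Sequence came from GRCm38. Shares have exact 95% Clopper-Pearson intervals, medians order-statistic intervals. Both lists used here pool the libraries of a genotype and values per library were not analysed here, so no test was run. Distance code was checked on simulated data. Python 3.11.15, numpy 2.4.6, pandas 2.3.3 and scipy 1.17.1 were used.

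The members and lists were chosen with earlier results of these data known. Named were list genes with a member peak, the 10 highest and 5 lowest signals, the 3 peaks on each side of a threshold, the genes with most peaks, the 5 strongest hosts of small RNAs and all WT-enriched peaks of the same rule. *Neat1* was named though its peak has another nearest gene. Genes shown for strings, RefSeq or heart neighbours were chosen after their values were seen. Alternatives changed the distances, transcripts, signal, repeats, chromosomes, CpG measure and CTCF string.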

Additional observations from a re-analysis of the deposited data

How the results depend on the processing

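No paired analysis was possible because each deposited list pools the libraries of a genotype, and leaving out a replicate was not possible for the same reason. Of 69 values recomputed under an alternative, 59 stayed within the interval of the value reported or within 1.5 times the count. With the TSS within 500 bp instead of 1 kb, 5.29% of isolated lncRNA genes had a member peak, and within 2 kb 8.33% did. With peaks at or above the list median only, 185 peaks at 188 genes (2.90%) remained, with a median of 335 tags. The lower counts and the higher median follow from that cut. Of these peaks 45.95% were CpG-rich, and CpG content moved with signal among the members, as given above. The CpG-rich share was 27.58% when measured in the peak alone and 10.31% with a CpG ratio of at least 0.75 and GC of at least 55%. The short CTCF core string was present in 24.94% of members and 23.8% of gained peaks at coding promoters, so the contrast of the longer string was lost. Leaving out peaks with a RefSeq coding TSS within 10 kb, an alternative chosen after seeing the data, left 385 peaks and a gene share of 5.97%. The lists do not show the depth reached by each library, so what depth limits could not be measured.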
